A study of Mus musculus with 4 samples.

Results

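The genes described here are enzymes, transporters and regulatory subunits of glucose, glycogen and pentose phosphate metabolism, read in mouse liver RNA. They were chosen by name, as every array probe set with a single gene symbol in the platform annotation that, updated to its present form, is on a list of 37 genes. Probe sets were found for 31 of the 37 genes, against 12393 genes named on the array in all, and they numbered 65. Gpi1, Pfkfb1, Eno1, Ppp1r3b, Sord and G6pdx matched no probe set by this rule and were not analysed here. The mice were adult male C57BL6 animals that received an adenovirus, carrying mouse lipin 1beta in the Ad-lipin group and green fluorescent protein in the GFP control group, and were killed on day 6. All animals therefore carried a viral vector, and the promoter that drives the insert is not given in the sources used here. Each group held 2 arrays, and the labels do not say whether these are different animals, so the spread behind each p-value is that between the samples as hybridised and may be technical. Ad-lipin replicate 2 is labelled as polyA RNA and the other 3 arrays as total RNA.

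The liver takes up glucose through the transporter GLUT2, traps it as glucose 6-phosphate, and from there sends it into glycogen, into glycolysis or into the pentose phosphate pathway, which makes NADPH for lipid synthesis. In fasting it runs the other way, making glucose from lactate and amino acids and releasing it through glucose-6-phosphatase, an enzyme that works with a glucose 6-phosphate transporter in the endoplasmic reticulum. Several steps have a liver isozyme, such as liver pyruvate kinase and liver phosphofructokinase, beside forms that other cell types use. Lipin 1 itself is a phosphatidate phosphatase and a nuclear coactivator of fatty acid oxidation genes.

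The values are MAS5 signals, a summary of the perfect match and mismatch probes of a probe set on a linear scale in arbitrary units, with a trimmed mean of 1501 on every array. Signals under 119.5 were raised to that floor before log2 was taken, and 13576 probe sets were bright enough to test. GFP replicate 2 stood apart from the rest, correlating with the others at 0.731 on average where they reached 0.781 to 0.793, and its 3' to 5' signal ratio for beta-actin, a sign of RNA degradation, was 4.22 against 1.77 to 2.86. The same ratio for Pcx did not single it out, with 4.01 and 5.09 in the Ad-lipin arrays and 3.83 and 3.93 in the GFP arrays. Lpin1 was read by a pair of probe sets, with signals of 3854 and 11087 in the Ad-lipin arrays and 7082 and 4632 in the GFP arrays for the brighter. The dimmer gave 2261 and 6719 in the Ad-lipin arrays and 2730 and 1430 in the GFP arrays. Ad-lipin replicate 1 thus had no Lpin1 signal above both GFP arrays, and every direction below is that of the arrays labelled Ad-lipin. Where the probes lie relative to the vector's cDNA is not known here. All 6 hepatocyte markers were measured, with a summed signal of 1909190 and 2234780 in the Ad-lipin arrays and 1358190 and 2837220 in the GFP arrays. That sum rests mostly on a few very bright genes, among them Alb and Ttr, and the median log2 difference of the 6 markers was 0.20. Hnf4a, a transcription factor of hepatocytes, read 22537 and 23579 in the Ad-lipin arrays against 17791 and 8054 in the GFP arrays on its brightest probe set, a log2 difference of 0.95 ± 0.37 without overlap (limma adjusted p = 0.962), and its 3 other probe sets gave -0.12 to 0.37. Tat, an amino acid catabolic enzyme, gave 0.76 ± 0.39 with overlap. On their brightest probe sets Alb, Apoa1 and Cps1 gave 0.14, 0.19 and 0.20, and Ttr gave -0.07, all with overlap.

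The members with the smallest p came from several branches and were all higher in the arrays labelled Ad-lipin. They were Gys2, the liver glycogen synthase, Slc37a4, the glucose 6-phosphate transporter, Ldha, the A subunit of lactate dehydrogenase, and Pcx, pyruvate carboxylase, the entry step of gluconeogenesis from pyruvate. Their signals were between 1.70-fold and 1.91-fold higher, and none passed the threshold after correction over all probe sets. Of the 65 member probe sets, 50 were tested, 8 were too dim and 7 were control probe sets of Gapdh and Pcx that were left out of the test. The tested ones covered 29 genes, each represented by its brightest tested probe set. At a limma adjusted p under 0.05 the counts of members were 0 higher and 0 lower, the same as among all 13576 probe sets, of which 0% were called in either direction. Before correction, 335 probe sets were higher and 261 lower at a limma p under 0.05. With no difference anywhere, 678.8 in both directions together would be expected. At an unadjusted p under 0.05, 4 members were higher, where 2.66% of 8493 genes were, and 0 were lower, where 1.97% of genes were.

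Both Ad-lipin arrays lay above both GFP arrays in 9 of the 29 members, or 31.0%, where 17.3% of all genes did. Both lay below in 2, or 6.90%, where 16.0% of all genes did. The log2 difference was above 0 in 18 members, against 50.1% of all genes, and the median over the members was 0.14 against 0.0015 over all genes. The hepatocyte markers had a median of 0.20, and their part in the members' values was not tested. The shift was not the same on every array. The median distance of the members from their mean over the 4 arrays was 0.18 in Ad-lipin replicate 1 and 0.07 in Ad-lipin replicate 2, against -0.02 in GFP replicate 1 and -0.29 in GFP replicate 2. Over all genes the same distances were 0.08, 0.04, -0.0028 and 0.11. Without GFP replicate 2 the members' median was 0.02, and the Ad-lipin arrays lay above GFP replicate 1 in 37.9% of members and 36.2% of all genes. Without GFP replicate 1 the median was 0.30. The part that RNA quality plays in this was not tested. For 1 gene alone, the smallest two-sided p an exact permutation test of these 4 arrays can give is 0.333.

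**Figure D1:**
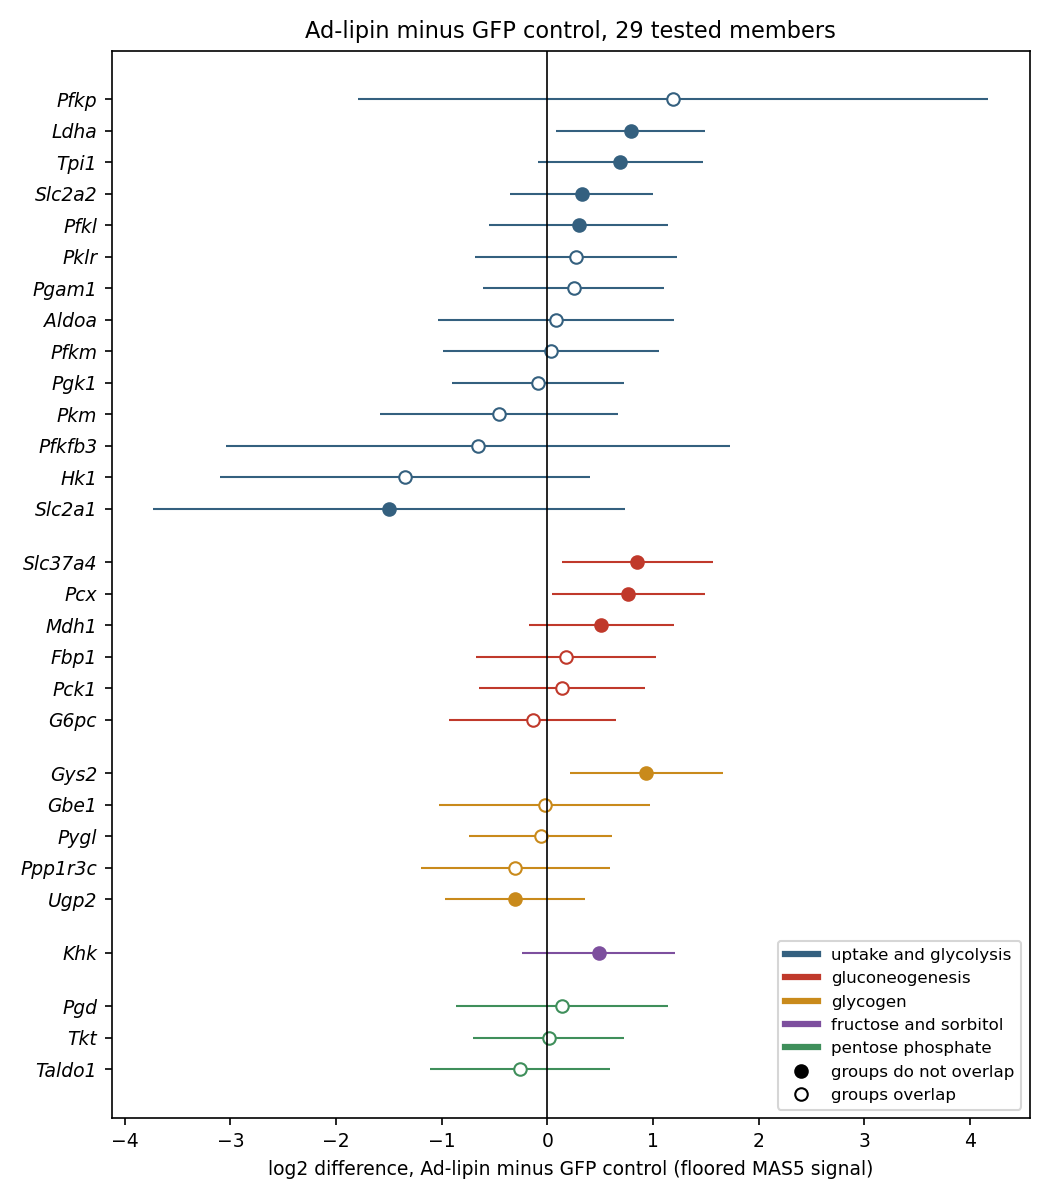
Log2 difference of the floored MAS5 signal, Ad-lipin minus GFP control, for the 29 tested members (brightest probe set of each gene), grouped by branch of metabolism. Points are limma estimates, lines their 95% confidence intervals (2 arrays per group), and filled points mark genes whose groups do not overlap; the intervals of Gys2, Slc37a4, Ldha and Pcx lie above 0 before correction.

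In gluconeogenesis, all 6 members were tested, 5 had a log2 difference above 0, and the median was 0.34. The transporter Slc37a4 had signals of 8944 and 12491 in the Ad-lipin arrays against 5923 and 5791 in the GFP arrays. Every Ad-lipin value exceeded both GFP values, by more than the GFP arrays differed from each other, and the log2 difference was 0.85 ± 0.33 (SE, n = 2 per group; limma adjusted p = 0.962). Pcx, which makes oxaloacetate from pyruvate in mitochondria, read 7585 and 7089 in the Ad-lipin arrays against 4313 and 4301 in the GFP arrays. The GFP arrays were almost equal and both Ad-lipin arrays stood above them, at a log2 difference of 0.77 ± 0.34 (limma adjusted p = 0.962). Pcx is also read by 4 control probe sets spread along its transcript. The 3' one gave 3860 and 5014 in the Ad-lipin arrays against 2516 and 3363 in the GFP arrays, and the 5' one gave 963 and 985 in the Ad-lipin arrays against 657 and 855 in the GFP arrays. Both separated the groups in the direction of the tested probe set. The pair from the middle of the transcript did not, with 868 and 109 in the Ad-lipin arrays and 589 and 802 in the GFP arrays for one (-1.09), and 429 and 272 in the Ad-lipin arrays and 926 and 130 in the GFP arrays for the other (-0.02). The probe sets of Pcx therefore disagree.

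The cytosolic malate dehydrogenase Mdh1, which turns exported malate back into oxaloacetate, read 26636 and 32261 in the Ad-lipin arrays against 22763 and 18623 in the GFP arrays, or 0.51 ± 0.32 on the log2 scale (limma adjusted p = 0.962). The groups did not overlap on this probe set, but a pair of further bright Mdh1 probe sets gave -0.35 and 0.10, so the gene has no single direction here. Fbp1, the fructose bisphosphatase of this pathway, read 78404 and 81806 in the Ad-lipin arrays and 94546 and 52845 in the GFP arrays. The Ad-lipin values lay between the GFP values, and the log2 difference was 0.18 ± 0.40.

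Pck1 and G6pc, which encode the cytosolic PEP carboxykinase and the catalytic subunit of glucose-6-phosphatase, are known targets of the hormones of fasting and feeding. Pck1 read 11701 and 21984 in Ad-lipin replicates 1 and 2 and 11778 and 18005 in GFP replicates 1 and 2, a log2 difference of 0.14 ± 0.37. G6pc read 11253 and 6760 in Ad-lipin replicates 1 and 2 and 12339 and 7464 in GFP replicates 1 and 2, a log2 difference of -0.14 ± 0.37. For both genes the groups overlapped and the arrays with the same replicate number resembled each other, with Pck1 higher and G6pc lower in the replicates numbered 2 of both groups. Each gene's 95% interval for the group difference, -0.65 to 0.93 for Pck1 and -0.93 to 0.65 for G6pc, is wide enough to hold a difference of 0.65 in either direction. Without Ad-lipin replicate 2 the signs of both turned, to -0.32 for Pck1 and 0.23 for G6pc. The dim second probe set of Pck1 was not tested.

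**Figure D2:**
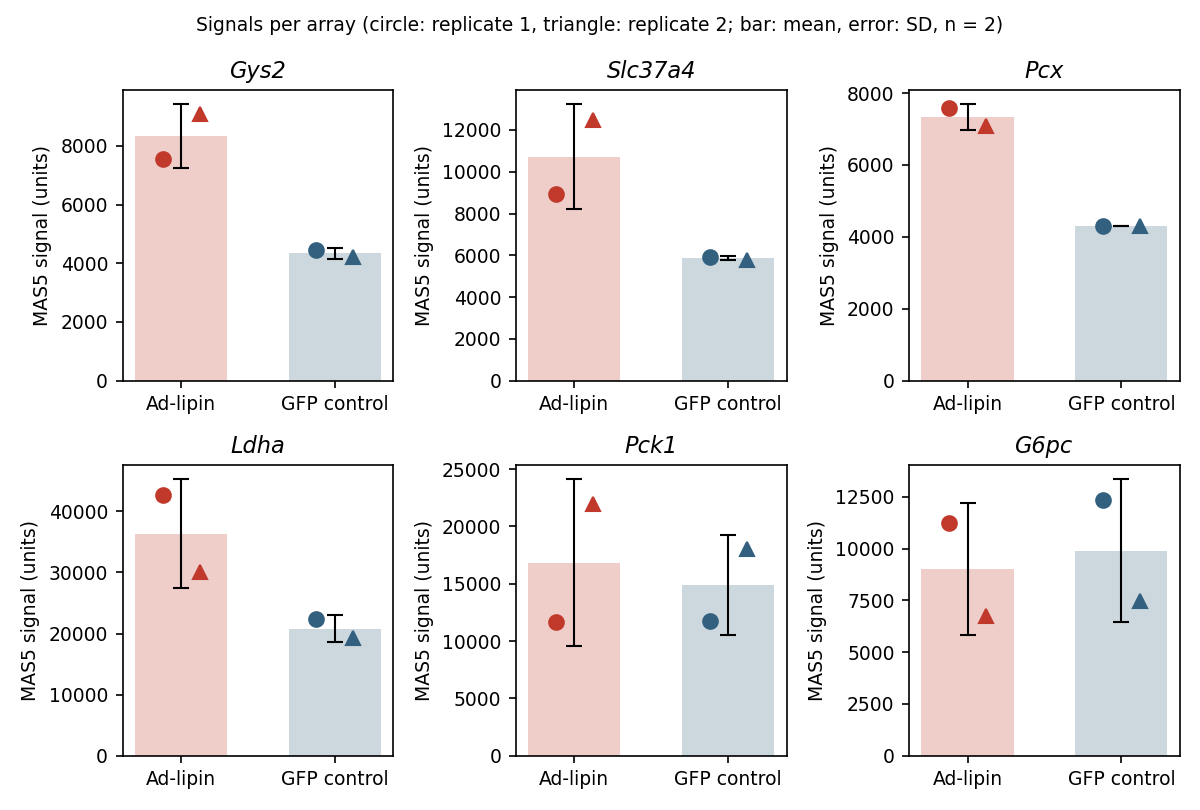
MAS5 signal per array (arbitrary units, linear axis from 0) for 6 members, with Ad-lipin left and GFP control right. Circles are replicate 1, triangles replicate 2, bars the mean and error bars the SD (n = 2); in Gys2, Slc37a4, Pcx and Ldha both Ad-lipin arrays lie above both GFP arrays, and in Pck1 and G6pc the groups overlap.

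In glycogen metabolism, 5 of 6 members were tested, and on the brightest probe set of each gene only Gys2 lay above 0. It read 7564 and 9102 in the Ad-lipin arrays against 4457 and 4214 in the GFP arrays, averaging 8333 ± 1087 in Ad-lipin and 4336 ± 172 in GFP (SD, n = 2 each). The groups did not overlap, and the log2 difference was 0.94 ± 0.34, the smallest p of any member (limma adjusted p = 0.962), with values of 0.80 to 1.07 when each array was left out. Pygl, the liver phosphorylase that breaks glycogen down, read 12002 and 15664 in the Ad-lipin arrays and 13567 and 15128 in the GFP arrays. Its groups overlapped, and its log2 difference was -0.06 ± 0.32, with a 95% interval from -0.74 to 0.62. Whether Gys2 differs from Pygl or from the other glycogen genes was not tested.

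The remaining glycogen genes had no log2 difference above 0 on their brightest probe sets. Ugp2, which makes the UDP-glucose that glycogen synthase uses, read 17269 and 16012 in the Ad-lipin arrays against 19480 and 21628 in the GFP arrays on its brightest probe set, or -0.30 ± 0.31 on the log2 scale (limma adjusted p = 0.962). That probe set separated the groups downward, a second separated them upward at 0.29, and the 5 tested probe sets ran from -0.30 to 1.39, so Ugp2 has no single direction. Gbe1, the branching enzyme, gave -0.02 ± 0.47. Ppp1r3c, a subunit that brings protein phosphatase 1 to glycogen, gave -0.30 ± 0.42, with GFP replicate 2 at 4813 and the other arrays between 2662 and 2935, and 0.12 without GFP replicate 2. The median of the 5 genes was -0.06.

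In glucose uptake and glycolysis, 14 of 19 members were tested, 9 had a log2 difference above 0 and the median was 0.17. That median was 0.024 without GFP replicate 2, 0.032 without Ad-lipin replicate 1, 0.092 without GFP replicate 1 and 0.28 without Ad-lipin replicate 2. Hk2, the inducible hexokinase, was too dim to test, with 802 and 322 in the Ad-lipin arrays and 458 and 69.8 in the GFP arrays. Ldha, which converts between pyruvate and lactate, read 42635 and 29998 in the Ad-lipin arrays against 22330 and 19220 in the GFP arrays. Each Ad-lipin array exceeded both GFP arrays, and the log2 difference was 0.79 ± 0.33 (limma adjusted p = 0.962). Tpi1, triose phosphate isomerase, read 10743 and 10720 in the Ad-lipin arrays against 9333 and 4744 in the GFP arrays. Most of its log2 difference of 0.69 ± 0.37 came with GFP replicate 2, and it was 0.20 without that array. Its other tested probe sets gave 0.63 and 0.19.

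Gapdh, the next enzyme after Tpi1, was read through 3 control probe sets only, which were not tested. The 3' one had 41881 and 35865 in the Ad-lipin arrays and 36310 and 19564 in the GFP arrays, with GFP replicate 2 lowest. The 5' one likewise had GFP replicate 2 lowest, with 23479 and 21765 in the Ad-lipin arrays and 23934 and 9714 in the GFP arrays. On both of these the groups overlapped. The middle one had 27715 and 26042 in the Ad-lipin arrays against 25123 and 14288 in the GFP arrays, without overlap and again with GFP replicate 2 lowest (log2 difference 0.50). The 3' to 5' ratio of Gapdh was 1.78 and 1.65 in the Ad-lipin arrays and 1.52 and 2.01 in the GFP arrays.

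The liver forms of glycolysis and uptake lay slightly above 0. Slc2a2, which encodes GLUT2, read 27218 and 22314 in the Ad-lipin arrays against 21139 and 18272 in the GFP arrays, with no overlap, and gave a log2 difference of 0.33 ± 0.32 (limma adjusted p = 0.962). Pfkl, liver phosphofructokinase, read 3133 and 4163 in the Ad-lipin arrays against 2929 and 2952 in the GFP arrays, and gave 0.30 ± 0.40, with its second probe set at 0.16 and overlapping. Pklr, liver pyruvate kinase, read 2474 and 3940 in the Ad-lipin arrays and 3357 and 1994 in the GFP arrays on its brightest probe set, a log2 difference of 0.27 ± 0.45 with overlap. A dimmer Pklr probe set separated the groups, with 2217 and 1887 in the Ad-lipin arrays against 1368 and 1081 in the GFP arrays (0.75 ± 0.52), and the dimmest gave -0.57 ± 1.13. The sign of Pklr turned to -0.10 without GFP replicate 2.

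Slc2a1, Hk1, Pkm, Pfkp and Pfkfb3, forms found mainly outside hepatocytes, had standard errors from 0.53 to 1.40 on the log2 scale. Slc2a1, the GLUT1 transporter of many cell types, read 488 and 239 in the Ad-lipin arrays against 600 and 1550 in the GFP arrays, or -1.50 ± 1.04 on the log2 scale (limma adjusted p = 0.962). The groups did not overlap, but the difference was -0.81 without GFP replicate 2, and a second tested probe set gave -1.11 ± 1.28 with overlap. Hk1, the hexokinase of most non-hepatic cells, read 1344 and 285 in the Ad-lipin arrays and 1013 and 2457 in the GFP arrays (-1.35 ± 0.82). Its groups overlapped, and the difference was -0.23 without Ad-lipin replicate 2 and -2.47 without Ad-lipin replicate 1. Pkm, the pyruvate kinase of muscle and dividing cells, read 2143 and 1044 in the Ad-lipin arrays and 1900 and 2221 in the GFP arrays (-0.46 ± 0.53). Pfkp gave 1.19 ± 1.40, with GFP replicate 1 near the floor at 124, and 0.06 without it. Pfkfb3, which makes the activator fructose 2,6-bisphosphate, gave -0.66 ± 1.12, and 0.0058 without GFP replicate 2. In these bulk samples fewer cells of a type and less RNA per cell cannot be told apart. Of 6 T and NK cell markers 4 were bright enough to test, with a summed signal of 3729 and 2107 in the Ad-lipin arrays against 4800 and 3833 in the GFP arrays, while Cd3e and Cd3g were too dim. All 5 macrophage markers were tested, and their sum was 30988 and 19605 in the Ad-lipin arrays against 36300 and 22653 in the GFP arrays. Most of that sum was Csf1r, and Clec4f, the Kupffer cell marker of the list, lay the other way, with 1413 and 2136 in the Ad-lipin arrays against 210 and 1245 in the GFP arrays (1.77 ± 0.84). Of 3 erythroid markers Alas2, the heme synthesis enzyme of red cell precursors, was bright enough to test, with 1955 and 856 in the Ad-lipin arrays and 1713 and 3019 in the GFP arrays (-0.81 ± 0.56). Markers of further cell types lay on both sides of 0. The median log2 difference was 0.11 for 3 endothelial and -0.18 for 2 stellate markers. The 1 tested marker each of bile duct, pancreas and muscle gave 0.33, 0.47 and 0.63. The tested T and NK cell markers had a median of -0.75, with Cd8a at -1.20. Dim probe sets of Cd3e, Cd3g and Cd8a, which were not tested, gave 0.49, 1.44 and 0.59. The part of any of these cells in the values of Slc2a1, Hk1 and Pkm was not tested.

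The remaining glycolytic enzymes lay near 0 or had probe sets of both signs. Pgk1, the phosphoglycerate kinase, read 77915 and 91040 in the Ad-lipin arrays and 85008 and 94275 in the GFP arrays, with a log2 difference of -0.09 ± 0.38. Pgam1, the mutase after it, gave 0.25 ± 0.40, and -0.03 without GFP replicate 2. Pfkm, the muscle phosphofructokinase, gave 0.04 ± 0.48. Aldoa, the aldolase of muscle and many other tissues, gave 0.08 ± 0.52 for the probe set that stands for it, with all 4 of them between -1.62 and 0.53.

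**Figure D3:**
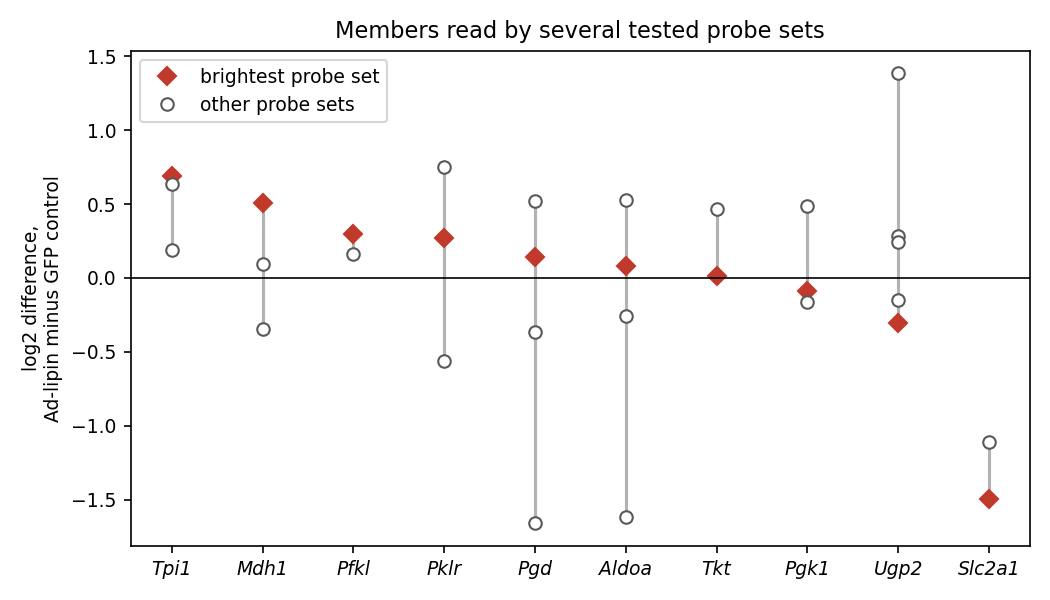
Log2 difference, Ad-lipin minus GFP control, of every tested probe set of the 10 members that have several. Diamonds are the brightest probe set, which stands for the gene, and open circles the others; in 6 of the 10 genes the probe sets lie on both sides of 0.

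In fructose metabolism Khk, the ketohexokinase that starts hepatic fructose breakdown, was the member tested. It read 8201 and 7690 in the Ad-lipin arrays against 6598 and 4866 in the GFP arrays. The groups did not overlap, and differed by 0.49 ± 0.34 in log2 (limma adjusted p = 0.962), which was 0.27 without GFP replicate 2.

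In the pentose phosphate pathway the groups overlapped for all 3 tested members, with a median of 0.01. Pgd, which makes NADPH in the oxidative part, read 4422 and 2111 in the Ad-lipin arrays and 3627 and 2120 in the GFP arrays, a log2 difference of 0.14 ± 0.47. Its 4 probe sets ran from -1.66 to 0.52. Taldo1, transaldolase, read 5371 and 4650 in the Ad-lipin arrays and 8795 and 4056 in the GFP arrays (-0.26 ± 0.40), and the high value of GFP replicate 1 decided the sign, which was 0.30 without it. Tkt, transketolase, read 13465 and 15496 in the Ad-lipin arrays and 18014 and 11379 in the GFP arrays (0.01 ± 0.33), with a 95% interval from -0.70 to 0.73, and a second probe set at 0.47 ± 0.39.

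**Figure D4:**
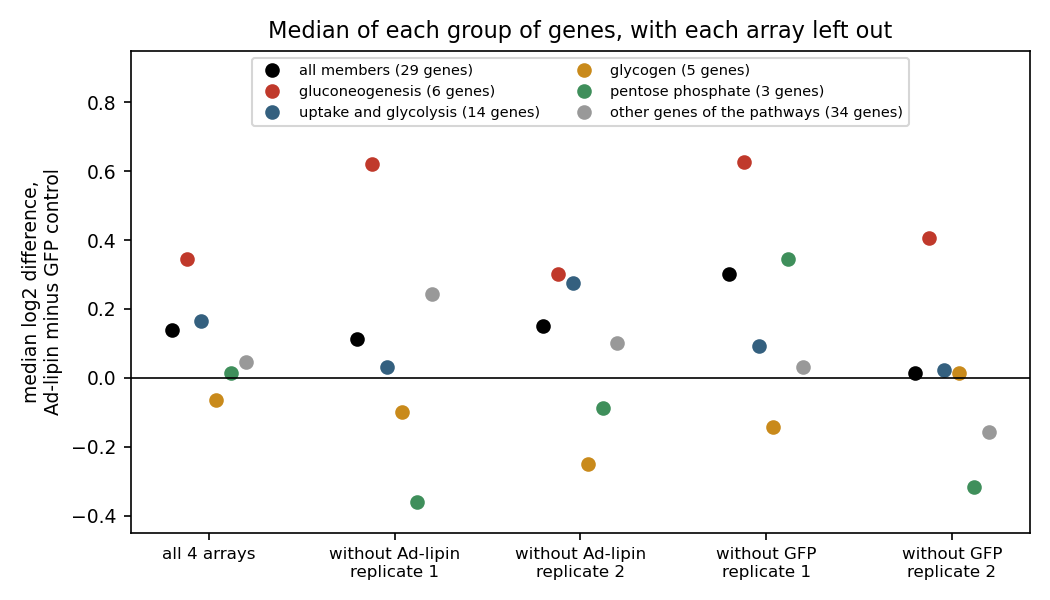
Median log2 difference, Ad-lipin minus GFP control, of all tested members, of 4 branches and of the other genes of the pathways, with all 4 arrays and with each array left out in turn. Gluconeogenesis lies between 0.30 and 0.63, the pentose phosphate median runs from -0.36 to 0.34 and that of all members from 0.02 to 0.30. Of the 6 gluconeogenesis genes, Slc37a4, Pcx and Mdh1 have groups that do not overlap. They stay above 0 here by construction, so the sign of that median is partly fixed in advance. With all 4 arrays and the probe sets of each gene averaged, that median was 0.16.

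Genes of the same pathways outside the list lay on both sides of 0. Of 54 such genes 34 were tested, 18 lay above 0, the median was 0.04, and the limma adjusted p was under 0.05 for 0 of them. At an unadjusted limma p under 0.05, 1 was higher, where 2.66% of all genes were, and 0 were lower, where 1.97% were. Both Ad-lipin arrays were above both GFP arrays in 6 of them, or 17.65%, against 17.3% of all genes. Both were below in 5, or 14.71%, against 16.0% of all genes. The smallest p among them belonged to Pgm1, phosphoglucomutase, the step between glucose 6-phosphate and glycogen, with 6696 and 6638 in the Ad-lipin arrays against 4983 and 2667 in the GFP arrays (log2 difference 0.87 ± 0.39). Pgls, the lactonase of the pentose phosphate pathway, read 2372 and 3062 in the Ad-lipin arrays against 1041 and 1640 in the GFP arrays (1.04 ± 0.50). Mlxipl, which encodes ChREBP, the glucose-responsive transcription factor of the liver, read 2016 and 2889 in the Ad-lipin arrays against 1350 and 1149 in the GFP arrays (0.95 ± 0.50). These 3 genes had groups that did not overlap, and so did Phka2, a regulatory subunit of liver phosphorylase kinase (0.89 ± 0.51). Gaa, the lysosomal glucosidase that degrades glycogen, gave 0.82 ± 0.53 with overlap (1.62 on a second probe set, also with overlap), and Bpgm, which makes 2,3-bisphosphoglycerate in red cells, gave -1.61 ± 1.07 on its brightest probe set. A second Bpgm probe set separated the groups the other way, with 1184 and 751 in the Ad-lipin arrays against 647 and 46.8 in the GFP arrays (1.76 ± 1.19), so Bpgm has no single direction. The limma adjusted p was 0.962 for each of these 6 genes. They were named for having the smallest p, and most of the 5 genes that lay below are not among them.

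The RefSeq table (GRCm38.p6) holds promoter windows for 35 of the 37 members, each from 250 bases before the transcription start to 50 after it, and the first window listed for a gene was used. Windows are shown for Slc37a4, Pcx and Ldha, which lay higher together in the arrays labelled Ad-lipin, and for Pck1 and G6pc, whose groups overlapped. Capitals mark exact matches on either strand to TGACGTCA (the full palindrome of the cyclic AMP response element), CACGTG (the E-box, 1 arm of a carbohydrate response element when paired), ACGTG (the core of a hypoxia response element, which every E-box also contains), TATAAA and GGGCGG (the GC box). Slc37a4 lies at chr9:44396696-44396995, Pcx at chr19:4510222-4510521, Ldha at chr7:46845554-46845853, Pck1 at chr2:173152823-173153122 and G6pc at chr11:101367466-101367765, all on the plus strand.
Slc37a4: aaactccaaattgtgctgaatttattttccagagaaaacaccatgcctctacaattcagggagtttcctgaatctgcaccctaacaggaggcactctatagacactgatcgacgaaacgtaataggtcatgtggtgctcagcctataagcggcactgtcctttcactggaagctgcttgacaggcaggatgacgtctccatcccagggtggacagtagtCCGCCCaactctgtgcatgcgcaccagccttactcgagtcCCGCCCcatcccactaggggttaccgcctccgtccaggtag
Pcx: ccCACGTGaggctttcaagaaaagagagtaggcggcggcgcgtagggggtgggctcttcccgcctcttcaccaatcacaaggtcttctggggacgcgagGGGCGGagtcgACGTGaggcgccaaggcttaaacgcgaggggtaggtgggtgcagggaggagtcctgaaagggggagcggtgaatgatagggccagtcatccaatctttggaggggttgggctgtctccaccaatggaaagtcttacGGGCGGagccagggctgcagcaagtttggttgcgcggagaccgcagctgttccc
Ldha: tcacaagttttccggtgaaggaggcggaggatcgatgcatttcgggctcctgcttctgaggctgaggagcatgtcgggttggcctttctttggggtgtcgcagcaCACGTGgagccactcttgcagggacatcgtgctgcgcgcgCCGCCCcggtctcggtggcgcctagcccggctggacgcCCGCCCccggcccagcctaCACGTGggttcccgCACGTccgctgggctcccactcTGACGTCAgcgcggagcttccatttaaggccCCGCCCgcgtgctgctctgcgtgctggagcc
Pck1: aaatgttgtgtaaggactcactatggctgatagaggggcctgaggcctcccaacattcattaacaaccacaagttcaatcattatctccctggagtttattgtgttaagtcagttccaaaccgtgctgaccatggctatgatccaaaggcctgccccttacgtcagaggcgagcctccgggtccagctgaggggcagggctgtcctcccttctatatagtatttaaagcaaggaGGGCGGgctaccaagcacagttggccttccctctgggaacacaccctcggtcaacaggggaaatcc
G6pc: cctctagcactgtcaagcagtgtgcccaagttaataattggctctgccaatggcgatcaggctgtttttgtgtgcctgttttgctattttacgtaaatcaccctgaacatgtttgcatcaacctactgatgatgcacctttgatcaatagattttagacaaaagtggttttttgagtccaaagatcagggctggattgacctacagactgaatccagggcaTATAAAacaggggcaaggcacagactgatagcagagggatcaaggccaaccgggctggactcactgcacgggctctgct

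Among the 3 genes whose tested probe set was higher, the windows differed. Positions are counted from the start site, with 1 as its first base. Ldha held E-boxes that begin at -145 and -48 and the TGACGTCA match at -12, with an ACGTG core apart from the E-boxes at -34 and GC boxes on the minus strand at -105, -67 and 20. Pcx held an E-box at -248, an ACGTG core at -140 and GC boxes at -151 and -4, and Slc37a4 held GC boxes alone, at -31 and 10. G6pc held TATAAA at -29 and no other match, and Pck1 held a GC box at -16. Over the 35 windows TGACGTCA occurred in 1, that of Ldha, where 1.88% of all 27025 genes with a window have it. CACGTG occurred in 5 (Khk, Ldha, Pcx, Pfkm and Ppp1r3c), or 14.3%, where 7.24% of all genes have it, and ACGTG in 15, or 42.9%, against 19.7%. GGGCGG occurred in 25, or 71.4%, against 35.9%, and TATAAA in 2 (G6pc and Slc2a1), or 5.71%, against 14.2%. Only exact matches were counted, so a window without one can still hold a variant of an element. The Pck1 window, for example, holds ttacgtca, close to TGACGTCA and left unmarked. These matches describe letters in a fixed window and show no binding.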

How the data were processed

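Liver RNA from 4 arrays, 2 Ad-lipin and 2 GFP control, was assigned to groups from each sample's title. The deposited unit is intensity on a linear scale, 1 signal per probe set, which the submitters' processing notes credit to MAS5. MAS5's version and scaling target were not found in the labels. Trimmed means of the arrays were equal, so the signals were used as deposited. MAS5 subtracts mismatch signal, which leaves dim probe sets noisy. No detection calls were used, and the number of arrays limits precision. The 64 control probe sets were left out of the 22690, signals under the 20th percentile (119.5) were set to it and log2-transformed, and the 13576 probe sets whose mean reached the 40th percentile entered the test with limma 3.58.1 in R 4.3.3 (lmFit, eBayes with an intensity trend, two-sided, Benjamini-Hochberg over all probe sets tested). The model has 2 residual and 12.7 prior degrees of freedom. Differences are on the floored log2 scale, which understates those of dim genes, and errors are limma's standard errors.

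The tested probe set of highest mean stood for each of 8493 genes. Probe sets with several symbols were not used. Every member could be named; of the other genes of the pathways, the 6 with the smallest unadjusted p were named, and the account leads with the members of smallest p. The fit was tested on simulated data with planted differences larger than that of any tested member. It therefore does not show whether differences of the size reported here would be found. The members and lists were chosen with earlier results of these data known, so lists have counts and medians and no test. Markers of endothelial, stellate, bile duct, erythroid, pancreas and muscle cells were also summed: 3 of 4, 2 of 4, 1 of 3, 1 of 3, 1 of 3 and 1 of 3 were bright enough to test, and 0 passed at an adjusted p under 0.05, though both Ad-lipin arrays lay above both GFP arrays for Cela1 of pancreas (log2 difference 0.47), Ckm of muscle (0.63) and Col3a1 of stellate cells (0.27). Protein sequences were not used here.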

Additional observations from a re-analysis of the deposited data

How the results depend on the processing

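No member passed the threshold under any setting (lowest limma adjusted p of a member 0.333, for any fit). Counts of probe sets over the whole array were 0 higher and 0 lower except with the replicate block, at 34 higher and 18 lower, and with an array left out, at 0 to 7 higher and 0 to 6 lower; in the block fit the prior degrees of freedom were infinite, so the spread was read off the fitted trend with intensity. The replicate block changed no call among the members. Same-numbered arrays deviated together only weakly (correlation 0.03), and the labels tie them to no animal or day, so the number was not taken as a pairing. With an array left out, the members' median ran from 0.015 to 0.30, uptake and glycolysis from 0.024 to 0.28, gluconeogenesis from 0.30 to 0.63, glycogen from -0.25 to 0.015 and the other genes of the pathways from -0.16 to 0.24, and 11 to 15 members were higher and 5 to 9 lower on all remaining arrays (chosen after seeing the data; fewer arrays make separation easier, and 30.1% to 36.2% and 30% to 39.9% of all genes did so). Averaging the probe sets of each gene, gluconeogenesis had a median of 0.16, uptake and glycolysis 0.11 and the pentose phosphate pathway -0.26. Without probe sets whose names end in _s, _x, _a or _f, gluconeogenesis had 0.18, glycogen 0.11 and uptake and glycolysis 0.036, from fewer probe sets. The pentose phosphate value of 0.47 then rested on 1 gene, Tkt. Of 200 values of members under settings that keep all arrays, 3 turned sign, Gbe1 at 0.0060 after median centring and 0.054 after quantile normalization, and Tkt at -0.016 after quantile normalization. The sign of 16 of 29 members turned when some array was left out. Their log2 differences then ran from -0.64 to 0.80 for Aldoa, -0.24 to 0.60 for Fbp1, -0.51 to 0.23 for G6pc, -0.49 to 0.44 for Gbe1, -0.32 to 0.59 for Pck1, -1.32 to 0.0058 for Pfkfb3, -0.43 to 0.50 for Pfkm, -0.031 to 0.53 for Pgam1, -0.39 to 0.67 for Pgd, -0.20 to 0.024 for Pgk1, -0.10 to 0.65 for Pklr, -0.98 to 0.061 for Pkm, -0.73 to 0.12 for Ppp1r3c, -0.26 to 0.13 for Pygl, -0.82 to 0.30 for Taldo1 and -0.32 to 0.34 for Tkt. The cause was not tested. A gene whose groups do not overlap keeps its sign here by construction. A lone array left in a group was assumed to vary like the others.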
